A study of Mus musculus with 16 samples.

Results

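The genes described here are 3 nuclear receptors of fatty acids, Ppara, Ppard and Pparg, the coactivator Ppargc1a, and 3 direct targets of the receptors, Pdk4, Angptl4 and Plin2. They are 7 of the 21687 protein-coding genes on the chromosomes analysed. A region was assigned to a gene when its summit lay within 50 kb of one of the gene's transcription starts and no start of another protein-coding gene was nearer. By this rule the 7 genes held 81 of the 23511 regions in which a histone mark differed between genotypes.

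Histone marks had been profiled by ChIP-seq in epithelial cells of the jejunum from C57BL/6 mice on postnatal day 12. The controls, labelled F/FUN and called WT here, were compared with ΔIECUN mice, called KO here, which lack the corepressor NCoR1 in the intestinal epithelium. The Cre driver, and whether animals were pooled, are not given in the sources used here. Both names end in UN, which the labels do not explain, and 8 of the lists hold regions on a contig named UGT1A. Of the 16 samples, 12 were ChIP libraries, 1 per genotype for each of H3K27ac, H3K9ac, H3K4me3, H3K4me1, H3K9me3 and H3K27me3, and 4 were inputs, which were not analysed here. With 1 ChIP library per group no difference in a mark can be set against replicate error, and no test between genotypes was possible. Every ChIP value below describes these libraries. The RNA values given later come from libraries that are not among the 16 samples.

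PPARs bind DNA as heterodimers with retinoid X receptors, at repeats of a hexamer separated by a single base (DR1). Without ligand they can hold corepressors such as NCoR1, which bring a histone deacetylase to the site. With ligand, such as a fatty acid, they recruit coactivators and acetyltransferases. In the intestine of suckling animals, which live on milk fat, PPARα and PPARδ are known as regulators of genes for fatty acid uptake, storage and oxidation. H3K27ac and H3K9ac mark active promoters and enhancers, H3K4me3 marks promoters, H3K4me1 marks enhancers. Of the repressive marks, H3K27me3 is laid by Polycomb and H3K9me3 is typical of heterochromatin.

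The authors called each region by comparing one genotype's library with the other's for the same mark, so a list holds differences and not all enriched sites. For each region the authors gave a pileup (tags over the summit, scaled to the smaller library of the pair) and a fold, which divides that pileup by the other library's local background after adding 1 to each. From these the background was recovered, so that both genotypes have a value at every region. It is the largest of several local averages, so it can lie above the other genotype's own pileup. Folds are the authors' values. Where folds of different marks stand side by side, they come from separate lists and are not on a common scale. The libraries held 27946003 to 47976125 tags, and 23925163 to 32444815 after duplicates were removed. H3K9ac kept the smallest shares, 64.3% in WT and 56.0% in KO.

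The sequences shown first are those of the KO-higher regions with the highest fold at Ppara, Pdk4 and Plin2, of the Pdk4 exon where all of the called active marks met, and of the Ppara and Angptl4 regions with a DR1 match nearest to the summit. Each is 300 bases of the mm9 plus strand around the summit. Capitals mark a DR1 match, defined as 2 copies of AGGTCA separated by 1 base on either strand with at most 2 mismatches at the 12 fixed positions, or an exact copy of the hexamer AGGTCA on either strand.
Ppara intron, chr15:85600481-85600780, H3K27ac: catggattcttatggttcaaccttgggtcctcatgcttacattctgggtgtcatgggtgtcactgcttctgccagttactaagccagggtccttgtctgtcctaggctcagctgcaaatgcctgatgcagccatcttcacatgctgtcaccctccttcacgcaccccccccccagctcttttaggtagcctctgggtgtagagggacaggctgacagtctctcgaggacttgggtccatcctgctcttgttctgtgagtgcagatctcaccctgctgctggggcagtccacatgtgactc
Pdk4 upstream, chr6:5458259-5458558, H3K9ac: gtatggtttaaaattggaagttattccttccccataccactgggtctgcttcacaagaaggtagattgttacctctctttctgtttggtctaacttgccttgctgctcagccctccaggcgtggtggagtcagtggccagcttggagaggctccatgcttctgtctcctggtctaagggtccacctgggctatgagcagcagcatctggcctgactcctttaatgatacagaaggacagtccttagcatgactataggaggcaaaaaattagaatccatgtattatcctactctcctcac
Plin2 upstream, chr4:86337197-86337496, H3K9ac: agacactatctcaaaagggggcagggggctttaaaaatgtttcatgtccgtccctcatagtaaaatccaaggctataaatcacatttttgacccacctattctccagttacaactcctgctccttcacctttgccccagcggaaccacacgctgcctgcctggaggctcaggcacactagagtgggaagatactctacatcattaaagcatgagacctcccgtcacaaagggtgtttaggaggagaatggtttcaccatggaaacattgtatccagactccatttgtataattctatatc
Pdk4 exon, chr6:5444787-5445086, H3K4me3: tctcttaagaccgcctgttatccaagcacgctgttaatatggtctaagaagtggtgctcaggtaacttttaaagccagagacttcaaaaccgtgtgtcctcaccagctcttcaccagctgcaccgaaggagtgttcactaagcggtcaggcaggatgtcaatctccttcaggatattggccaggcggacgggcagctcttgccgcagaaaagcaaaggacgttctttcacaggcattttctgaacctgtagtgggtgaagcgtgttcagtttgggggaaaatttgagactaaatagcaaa
Ppara intron, chr15:85578866-85579165, H3K27ac: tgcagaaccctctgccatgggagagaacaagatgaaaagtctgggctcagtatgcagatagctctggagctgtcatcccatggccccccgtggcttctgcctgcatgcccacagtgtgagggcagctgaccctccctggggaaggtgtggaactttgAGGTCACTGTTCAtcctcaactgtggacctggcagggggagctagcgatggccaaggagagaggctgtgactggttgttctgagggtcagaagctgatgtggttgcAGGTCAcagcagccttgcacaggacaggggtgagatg
Angptl4 intron, chr17:33916159-33916458, H3K27ac: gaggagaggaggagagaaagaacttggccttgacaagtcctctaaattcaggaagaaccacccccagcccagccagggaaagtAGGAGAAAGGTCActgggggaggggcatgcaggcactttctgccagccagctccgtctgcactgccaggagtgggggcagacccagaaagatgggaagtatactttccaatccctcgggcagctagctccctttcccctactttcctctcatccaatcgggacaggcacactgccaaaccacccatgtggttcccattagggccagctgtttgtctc

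The strongest regions of Ppara, Pdk4 and Plin2 held no capitals, that is neither a DR1 match nor an exact hexamer in the 300 bases. A DR1 match was found in 5 of the 47 KO-higher H3K27ac windows of the 7 genes (10.6%), against 371 of 7094 such windows in the whole list (5.23%). For KO-higher H3K9ac it was 1 of 29 (3.45%), against 93 of 1882 (4.94%). Within the listed regions alone, a match lay in 4 of the 47 H3K27ac regions (8.51%), against 3.86% of the list. For H3K9ac it was 0 of 29, against 2.87%. An exact hexamer lay in 9 of the 47 H3K27ac windows (19.1%), against 1450 of 7094 (20.4%), and in 4 of the 29 H3K9ac windows (13.8%), against 368 of 1882 (19.6%). The 6 DR1 matches, each with 2 mismatches, are shown 5′ to 3′ on their own strand, with capitals where the base is that of the motif.
Ppara, chr15:85579023-85579035, plus strand: AGGTCActGtTCA
Ppara, chr15:85603733-85603745, plus strand: tGGTCAcAGGaCA
Angptl4, chr17:33916242-33916254, plus strand: AGGagAaAGGTCA
Plin2, chr4:86320929-86320941, minus strand: AGcTCAgAGGTCc
Plin2, chr4:86330287-86330299, plus strand: AGGTgAcAGcTCA
Plin2, chr4:86304185-86304197, plus strand: AGGTCAaAGGagA

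The Ppara match 13 bp from its summit lay in a region with a fold of 3.95, and the Angptl4 match lay in the region with the lowest fold of that gene, 1.88. A match describes these letters only, since other receptors such as HNF4 also bind DR1 repeats, and binding was not measured.

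Acetylation was higher in KO at most of the 7 genes. These genes and the gene lists below were chosen with earlier results of these data known. Their counts against all genes are therefore descriptions and no independent support for a difference. KO-higher H3K27ac regions lay at 6 of 7 (all but Pparg), against 11.4 percent of all protein-coding genes. KO-higher H3K9ac regions lay at 3 of 7 (Ppara, Pdk4 and Plin2), against 4.0 percent, and the same 3 had both acetylation marks, as did 711 of 21687 genes (3.28%). KO-higher H3K4me3 regions lay at Pdk4 alone, against 0.300 percent. In bulk chromatin such as this, a change in the share of a cell type and a change in the mark per cell cannot be told apart.

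The 7 genes held 3 WT-higher regions, of the methylation marks H3K4me1 and H3K4me3. WT-higher H3K27ac and WT-higher H3K9ac lay at 0 of 7, against 7.44 percent and 7.55 percent of all genes. WT-higher H3K4me1 lay at Pparg and Plin2 (background 7.39 percent) and WT-higher H3K4me3 at Ppard (background 15.2 percent), so 3 of 7 members had a WT-higher region of an active mark, as had 5960 of all genes (27.5%). For the repressive marks, no member had a region of KO-higher H3K9me3 (2.12 percent of all genes), WT-higher H3K9me3 (1.06 percent) or WT-higher H3K27me3 (0.830 percent). At the backgrounds of these lists and of WT-higher acetylation, a count of 0 in 7 genes sets these genes apart from no others.

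**Figure D1:**
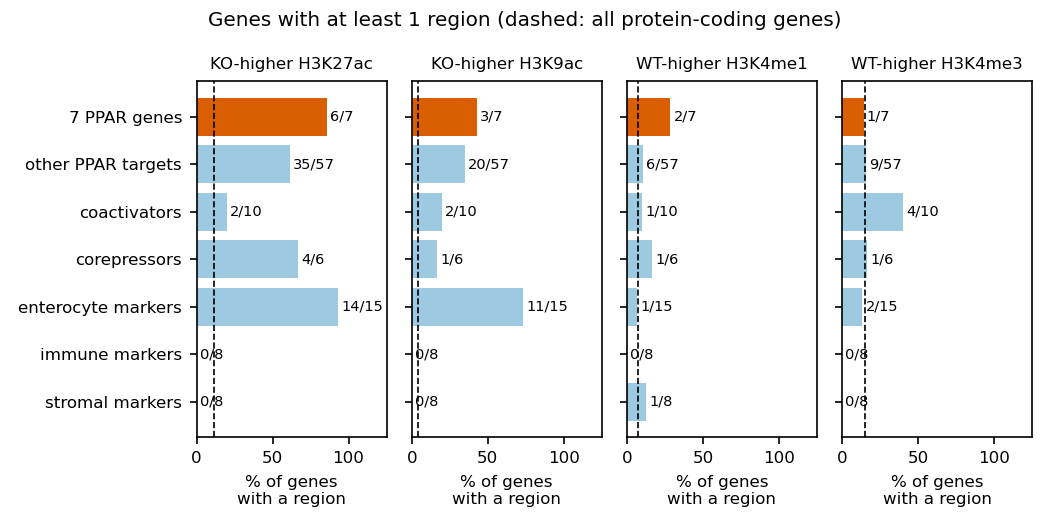
Bars give the percent of genes with at least 1 region in 4 of the lists, for the 7 PPAR genes and 6 other gene lists, with counts beside the bars and the share of all protein-coding genes as a dashed line. KO-higher H3K27ac lay at 6 of the 7 PPAR genes and 35 of 57 other targets, and at none of the immune or stromal markers. At a share of 11.4 percent of all genes, a count of 0 in 8 sets those markers apart from no others.

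As a set the genes have more flanking sequence than the median gene. The stretch in which a summit would be assigned to them had a median of 88.0 kb, against 45.9 kb for all genes, which gives more room for a region, although that of Angptl4, 25.0 kb, was shorter than the median. Acetylation at markers of the absorptive cell moved in the same direction. KO-higher H3K27ac lay at 14 of 15 enterocyte markers, against 11.4 percent of all genes, and KO-higher H3K9ac at 11, against 4.0 percent. WT-higher H3K4me3 lay at 2 of the 15 (Lct and Hnf4a), against 15.2 percent of all genes. WT-higher H3K4me1 lay at 1 (Krt20), against 7.39 percent, so both were near the shares of all genes. KO-higher H3K4me3 lay at 2 (Vil1 and Apob), against 0.300 percent. The repressive mark H3K9me3 was KO-higher at 1 (Vil1), against 2.12 percent. Vil1, counted above for acetylation, was thus KO-higher in both acetylation marks, in H3K4me3 and in the repressive H3K9me3. Neither acetylation mark was KO-higher at any of 8 immune or 8 stromal and endothelial markers. At the shares of all genes, a count of 0 in 8 sets these markers apart from no others. Of 8 secretory markers 1 (Chga) had both KO-higher acetylation marks as well as a WT-higher H3K27ac region. KO-higher H3K27ac also lay at 1 of 4 adipocyte markers (Plin1). Among other marks, WT-higher H3K4me1 lay at Cdh5 and at Muc2, each 1 of 8 markers of its list, against 7.39 percent of all genes. KO-higher H3K9me3 lay at Col3a1, 1 of 8, against 2.12 percent. Single genes set these lists apart from no others. Fabp1, Fabp2 and Plin1 are also PPAR targets. The part of cell composition in the result was not tested. The lists give no level for a gene without a region, so the labelled cell type could not be checked by its markers' levels.

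The 47 KO-higher H3K27ac regions had folds of 1.49 to 6.75 with a median of 2.82, against 2.52 for the 7111 regions of the list, and 31 of them lay above that list median. The 29 KO-higher H3K9ac regions had folds of 1.43 to 7.03 with a median of 3.81, against 2.91 for 1883 regions, and 22 lay above. Their median KO pileup was lower than that of the list, 35.2 against 53.3 tags, while for H3K27ac it was 74 against 71. Of the 47 H3K27ac regions 22 belong to Ppara (median fold 2.93), and the medians at Ppargc1a (2.86) and Pdk4 (3.55) were also above that of the list, while those at Ppard (2.44), Angptl4 (2.48) and Plin2 (2.13) were below it. Most regions were away from promoters. Of the H3K27ac regions 28 were intronic, 13 between genes and 6 exonic, with 5 within 1 kb of a start (10.6%, against 7.99% of the list). Of the H3K9ac regions 17 were intronic, 6 between genes and 6 exonic, with 5 within 1 kb of a start (17.2%, against 15.3%).

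**Figure D2:**
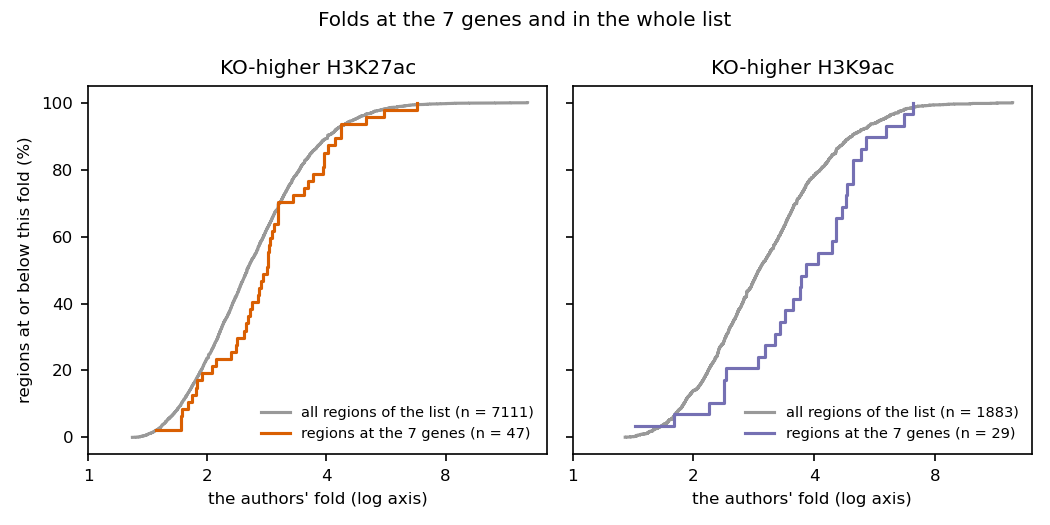
Cumulative percent of regions at or below each fold (log axis), for the regions at the 7 genes (coloured) and all regions of the same list (grey). The coloured curves lie to the right of the grey ones over most of their range, with medians of 2.82 against 2.52 for H3K27ac and 3.81 against 2.91 for H3K9ac.

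Promoter and distal regions differed in their starting level. At the 5 promoter H3K27ac regions the WT background was 30.2 to 80.4 scaled tags and the fold 1.72 to 2.88. At the other 42 the WT background was 4.57 to 103 tags, with a median of 22.3, and the fold reached 6.75. In H3K9ac the 5 promoter regions had a median WT background of 22.2 tags and the other 24 a median of 8, with median folds of 2.89 and 4.48. The same order held over the whole lists, where the median fold was 1.96 at promoters and 2.54 elsewhere for H3K27ac, and 2.29 and 3.02 for H3K9ac. The highest H3K9ac folds therefore rest on few WT tags.

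**Figure D3:**
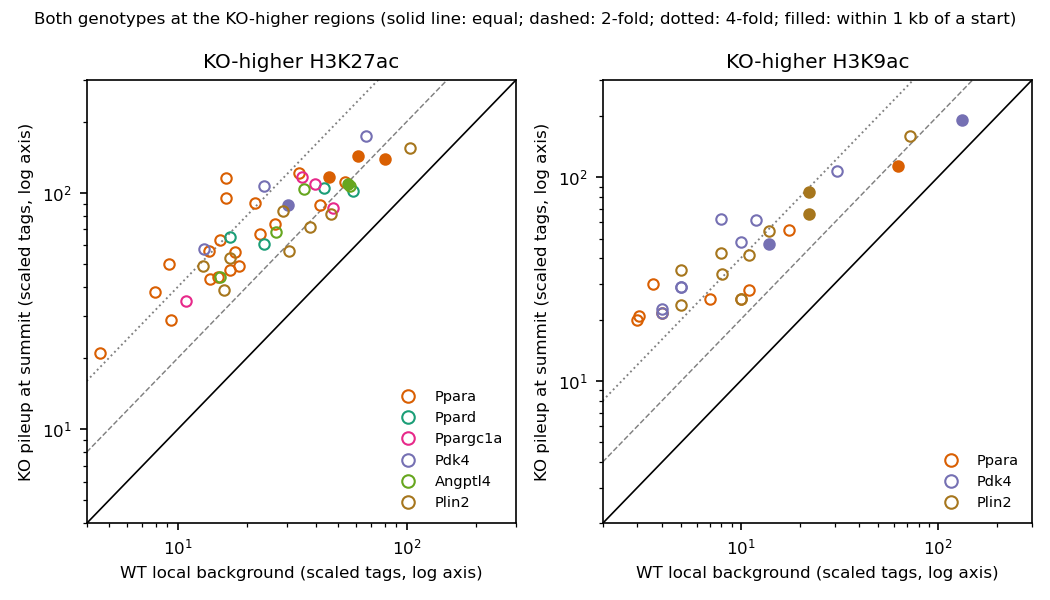
KO pileup at the summit against the WT local background, both in scaled tags on log axes, for each KO-higher H3K27ac (left) and H3K9ac (right) region of the 7 genes, filled within 1 kb of a start. All points lie above the line of equality because the lists hold only KO-higher regions, and every point above the dotted 4-fold line has a WT value of 23.8 tags or less.

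Ppara, the receptor that drives hepatic and intestinal fatty acid oxidation, had the most regions among these genes. The gene lies at chr15:85565413-85633249 on the plus strand and had 22 regions with more H3K27ac in KO and 9 with more H3K9ac. By number of H3K27ac regions it ranked 3 among 2465 genes with any, tied with others so that 3 genes share that number, where the median gene had 2. By highest H3K27ac fold it ranked 20.

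The largest differences at Ppara lay in an intronic stretch 26.8 to 37.3 kb downstream of the nearest start. The H3K27ac region chr15:85600216-85601102 had 115 tags in KO and a WT background of 16.2, a fold of 6.75 and rank 42 of 7111 in the list. A neighbour at chr15:85598287-85598553 had 95 in KO and the same WT background of 16.2, a fold of 5.59. This background is a local average, so the shared value is not a separate WT measurement at each summit. H3K9ac was higher in KO at the same places. At chr15:85598778-85598976 it had 29.8 tags in KO and 3.60 in WT, a fold of 6.69, over an H3K27ac region with a fold of 3.51. In this stretch WT had at most 33.7 H3K27ac tags at any region and KO had up to 121.

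The Ppara promoter differed less in proportion. The H3K27ac region 231 bp downstream of a start had 143 tags in KO and 61.5 in WT, a fold of 2.30. The overlapping H3K9ac region, 154 bp upstream by its summit, had 114 in KO and 63 in WT, a fold of 1.79. A further H3K27ac region 984 bp upstream had 117 in KO and 45.6 in WT, a fold of 2.53, and one 436 bp upstream had 139 and 80.4, a fold of 1.72. Farther upstream, between genes, H3K27ac regions at 17.5 kb and 22.7 kb had folds of 2.95 and 3.95, the latter with 21 tags in KO and 4.57 in WT.

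Other intronic Ppara regions filled the interval between promoter and cluster. The region with the DR1 match, chr15:85578919-85579246, had 57 H3K27ac tags in KO and 13.7 in WT. At 18.9 kb the H3K27ac region chr15:85585290-85585557 had 91 in KO and 21.8 in WT, a fold of 4.03, and overlapped an H3K9ac region with a fold of 2.42. Of the 9 H3K9ac regions of Ppara 7 overlapped H3K27ac that was also higher in KO.

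The assignment rule leaves out part of the gene. The 3′ stretch of Ppara lies nearer to the start of 2210021J22Rik, and 12 KO-higher H3K27ac and 4 KO-higher H3K9ac regions inside the Ppara body are assigned there. The nearest of them had its summit 39.2 kb from a Ppara start with a fold of 1.75, and the highest, H3K9ac at chr15:85620124-85620504, had a fold of 7.11. Counted over the gene body alone, Ppara had 31 H3K27ac and 13 H3K9ac regions. Among the regions kept, the farthest from their start were at 41.0 kb (Pparg, H3K4me1, fold 1.95) and 37.3 kb (Ppara, H3K27ac, fold 3.02).

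**Figure D4:**
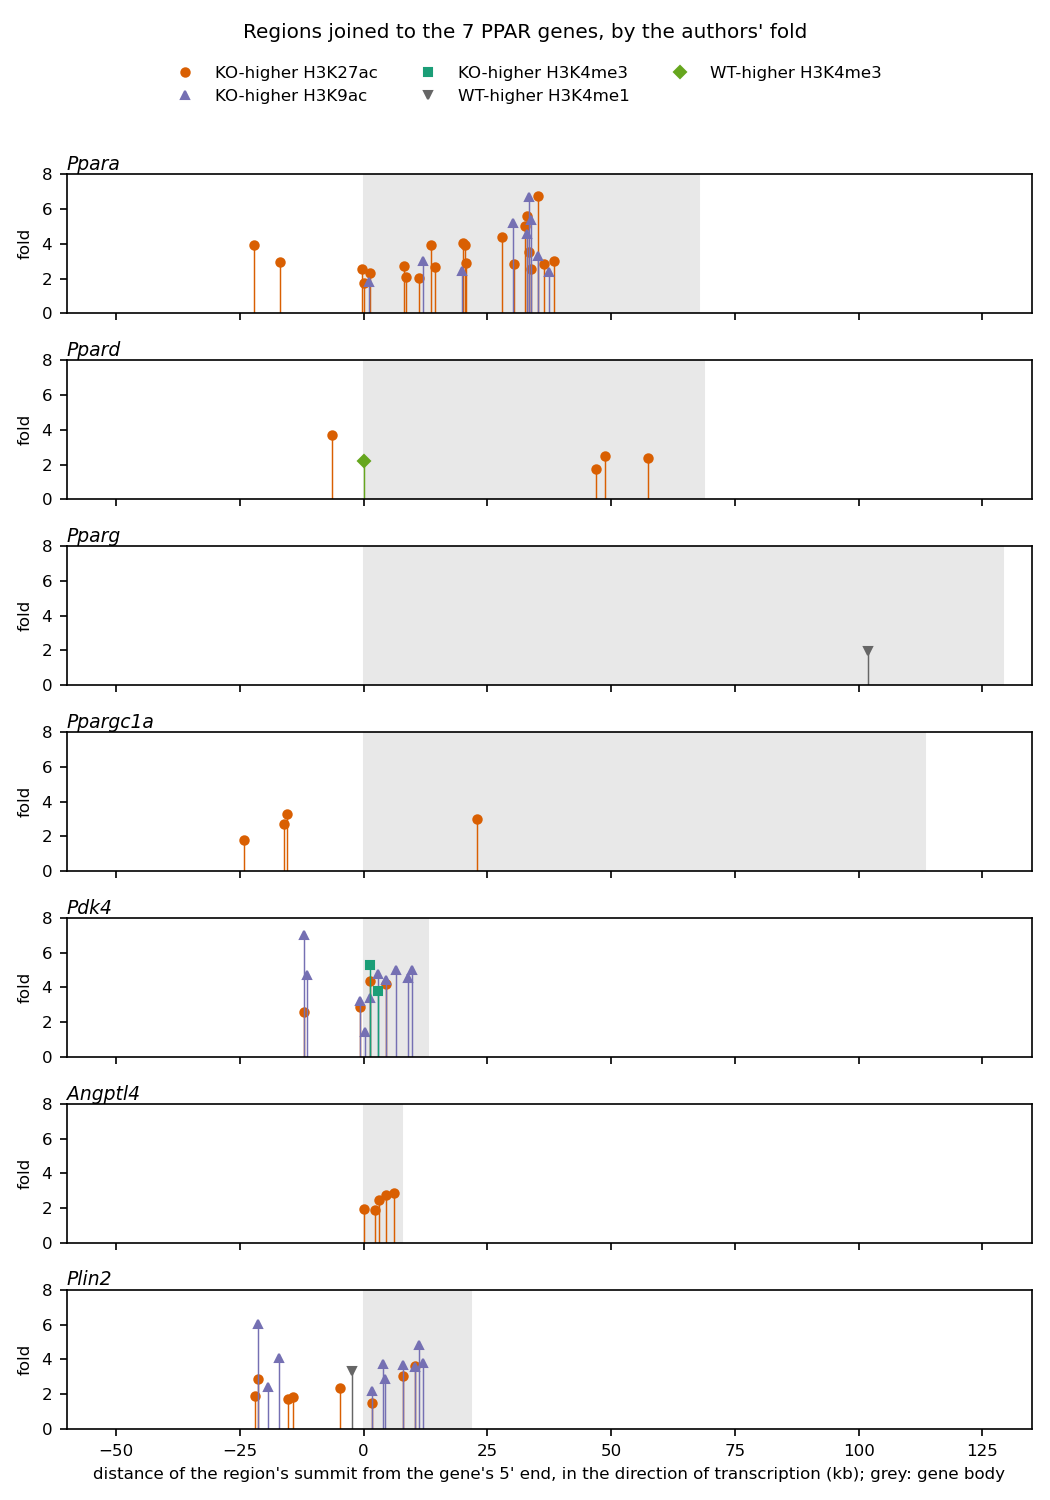
Fold of each region (stems, by list) against the distance of its summit from the 5′ end of the gene in the direction of transcription, with the gene body in grey, for each of the 7 genes (distances in the text are from the nearest annotated start). Ppara, Pdk4 and Plin2 carry both acetylation marks, Ppara's highest folds sit inside the gene, and Pparg has a single H3K4me1 region.

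Ppard, the receptor expressed in most tissues, gave a mixed picture, with less H3K4me3 at its promoter and more H3K27ac at 4 distal regions. The whole lists leaned the same way. H3K4me3 had 4166 WT-higher and 131 KO-higher regions, and H3K27ac had 2510 WT-higher and 7111 KO-higher regions. The gene lies at chr17:28369699-28438414 on the plus strand. The WT-higher H3K4me3 region chr17:28369733-28369889, 148 bp from the start, had 128 tags in WT and 57.3 in KO, a fold of 2.21, where the list median was 2.1. No acetylation difference was listed at that promoter. KO-higher H3K27ac lay inside the gene 7.40, 9.36 and 17.9 kb from a start, with folds of 1.73, 2.50 and 2.37. The highest Ppard fold, 3.70, with 65 tags in KO and 16.8 in WT, was 6.38 kb upstream at chr17:28363245-28363414, in an intron of the neighbouring gene Def6.

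Pparg, the receptor of adipocyte differentiation, had no acetylation difference within the limit. Its only region was a WT-higher H3K4me1 region in an intron at chr6:115413069-115413320, 41.0 kb from the nearest start, with 51 tags in WT and 25.6 in KO. That fold, 1.95, was below the list median of 2.94. Just outside the limit, at 58.6 kb and still in the gene body (chr6:115311239-115440419, plus strand), a KO-higher H3K27ac region at chr6:115430658-115430821 had a fold of 2.56. Pparg RNA had a log2 fold change of -0.09 with an FDR of 1 in the authors' deposited table.

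Ppargc1a encodes PGC-1α, a coactivator of PPARs and of mitochondrial genes, and lies at chr5:51845488-51958964 on the minus strand. Its 4 KO-higher H3K27ac regions were all distal, and no H3K9ac difference was listed. Upstream, chr5:51974419-51974595 at 15.5 kb had 117 tags in KO and 34.7 in WT, a fold of 3.3. The next at 16.1 kb had 109 and 39.7, a fold of 2.70, and one at 24.2 kb had 86 and 47.6, a fold of 1.79. Inside the gene, 9.03 kb from a start, an intronic region had 35 in KO and 10.9 in WT, a fold of 3.02. The authors also assign to Ppargc1a a WT-higher H3K4me1 region 453.5 kb away, chr5:51491542-51491703, with a fold of 4.24 (25 tags in WT, 5.13 in KO), which lies outside the limit used here.

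Pdk4 encodes a kinase that inhibits pyruvate dehydrogenase and so spares glucose when fat is burned, and lies at chr6:5433351-5446309 on the minus strand. It was the only member with KO-higher differences in H3K27ac, H3K9ac and H3K4me3. All 3 marks met in a coding exon about 1.37 kb downstream of the start. There H3K27ac (chr6:5444805-5445051) had 107 tags in KO and 23.8 in WT, H3K9ac (chr6:5444860-5445058) had 107.5 and 31, and H3K4me3 (chr6:5444852-5445019) had 67.6 and 12. The folds were 4.35, 3.39 and 5.27. Of the 131 KO-higher H3K4me3 regions of the genome, 31 shared bases with both acetylation marks (23.7%).

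Around this exon the Pdk4 differences continued in H3K9ac. The second H3K4me3 region, 2.82 kb downstream at chr6:5443405-5443558, had 36.8 tags in KO and 9 in WT, a fold of 3.78, and overlapped H3K9ac with 61.4 and 12, a fold of 4.80. At 4.54 kb H3K9ac had 47.9 and 10.1, a fold of 4.42, over H3K27ac with 58 and 13, a fold of 4.21. Farther in, at 6.49, 8.88 and 9.82 kb, H3K9ac alone was listed, with 21.7 to 28.9 tags in KO and 4 or 5 in WT. Differences thus lay along most of the gene body.

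The start of Pdk4 itself was already strongly marked in WT. H3K9ac 255 bp downstream of the start had 190.5 tags in KO and 133 in WT, a fold of 1.43, lower than the fold of 99.7% of the list. Upstream, both acetylation marks were higher in KO about 0.73 kb from the start, with folds of 2.88 and 3.2, and again at 12.1 kb. At that distal site H3K9ac (chr6:5458306-5458473) had 62.3 in KO and 8 in WT, a fold of 7.03, the highest of the H3K9ac regions assigned to these genes by nearest start. H3K27ac there (chr6:5458313-5458506) had 174 in KO and 66.5 in WT, a fold of 2.59. By highest H3K9ac fold Pdk4 ranked 22 among 868 genes, Ppara 31 and Plin2 61.

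Angptl4 encodes a secreted inhibitor of lipoprotein lipase and lies at chr17:33910695-33918520 on the minus strand. Its 5 KO-higher H3K27ac regions ran across the gene from 0.15 to 6.22 kb downstream of the start, and no other list held a region. Near the start H3K27ac had 109 tags in KO and 55.6 in WT, a fold of 1.94. The region with the DR1 match, chr17:33916212-33916388, had 107 and 56.6. The remaining regions had 68 and 26.8, 44 and 15.2, and 104 and 35.7, with folds of 2.48, 2.77 and 2.86, so that all folds were moderate.

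Plin2 encodes a coat protein of lipid droplets and lies at chr4:86294290-86315964 on the minus strand. H3K27ac was higher in KO at 8 of its regions and H3K9ac at 10, and by number of H3K9ac regions it shared rank 11 of 868 genes with Pdk4 and others (6 genes with that number). Upstream, 21.4 kb from the start, H3K9ac (chr4:86337244-86337392) had 35.2 tags in KO and 5 in WT, a fold of 6.04. The overlapping H3K27ac region had 84 in KO and 28.8 in WT, a fold of 2.85. Inside the gene both marks met at 5.97 kb with folds of 3.60 for H3K27ac and 3.55 for H3K9ac.

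Closer to the first exons Plin2 had higher levels in both genotypes. About 1.1 kb downstream of a start H3K9ac had 159 tags in KO and 72.0 in WT, a fold of 2.19, and H3K27ac 154 and 103, a fold of 1.49. At 3.60 kb the folds were 3.02 for H3K27ac and 3.68 for H3K9ac. An internal start had H3K9ac differences 58 and 346 bp upstream, with 65.9 and 84.9 tags in KO against 22.2 and 22.1 in WT. H3K4me1 differed the other way: chr4:86318205-86318364, 2.32 kb upstream, had 31 tags in WT and 8.54 in KO, a fold of 3.35. The nearest KO-higher H3K27ac region upstream of it, 4.86 kb from the start, had 39 in KO and 15.9 in WT.

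Where the acetylation marks met was described over the members together. Of the 29 KO-higher H3K9ac regions 15 shared at least 1 base with a KO-higher H3K27ac region (51.7%), against 733 of 1883 in the whole list (38.9%). The counts were 7 of 9 at Ppara, 4 of 10 at Pdk4 and 4 of 10 at Plin2. Both H3K4me3 regions of Pdk4 overlapped H3K9ac, as did 43 of 131 in the whole list (32.8%).

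RNA was available as the authors' comparison for 1547 genes, those nearest to a WT-higher H3K4me1 region. The RNA libraries are not samples of this series, so the sample labels do not give their tissue, age or replicate number. The column is headed "wt vs. ko logFC", and neither that name nor any other source used here settles which genotype is the numerator. Of the 1547 genes, 77 were positive in the authors' deposited table (4.98 percent) and 149 negative (9.63 percent) at an FDR of 0.05, and 2 of the 3 members with a row were positive. Plin2 had a log2 fold change of 0.92 (FDR 9.25e-29) and Ppargc1a one of 0.51 (FDR 2.84e-06) in the authors' deposited table. RNA of Ppara, Ppard, Pdk4 and Angptl4 was not analysed here. If a positive value means KO over WT, Plin2 and Ppargc1a RNA was higher in KO, and if it means WT over KO it was lower in KO. Among genes of the authors' deposited table that passed the threshold, 64 of 74 with a KO-higher H3K27ac region were positive, and 13 of 152 without one.

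The wider set of PPAR targets was counted the same way for 57 genes of lipid uptake, storage and oxidation. KO-higher H3K27ac lay at 35 of 57 (61.4%) and KO-higher H3K9ac at 20 (35.1%), both above the backgrounds given for the 7 genes. This list too was chosen with earlier results known, and its flanking sequence was not set against that of all genes. KO-higher H3K4me3 lay at 0, against 0.300 percent of all genes, a share at which 0 of 57 sets the targets apart from no others. The highest KO-higher folds were at Acsl3 (5.78), Ehhadh (5.29), Cd36 (4.81) and Cyp4a31 (4.66) for H3K27ac, and at Acadl (5.44), Gk (4.77) and Acsl1 (4.67) for H3K9ac. Ehhadh is a peroxisomal oxidation enzyme and Cd36 takes up fatty acids. Cyp4a31 has close paralogs whose reads the alignment could have shared.

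WT-higher acetylation lay at 3 of the 57, Acadm (H3K27ac fold 3.34), Acsl1 (2.34) and Acsl5 (2.30, with H3K9ac at 1.64), 5.26% and near the background for H3K27ac. WT-higher H3K4me3 lay at 9 and WT-higher H3K4me1 at 6 (10.53%), near their backgrounds. Genes with regions in both directions included Cpt1a, Acadl, Eci2, Acsl1, Acsl5, Cidec, Pex19 and Pck1. At Pex19, for example, 2 KO-higher H3K27ac regions stood beside WT-higher H3K4me3 at the promoter (120 tags in WT, 61.6 in KO), the same pairing as at Ppard. No list held a region of 15 of the 57. The share of all genes without a region was not counted, so no reading is drawn from that number. In the authors' deposited table Acadvl (log2 fold change 0.71), Acadl (0.34) and Cpt1a (0.23) were positive and Acadm (-0.29) negative past the threshold, with the same doubt about direction.

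Partners and coactivators of the receptors were counted next. Of the 3 retinoid X receptor genes, Rxra had a WT-higher H3K27ac region 20.03 kb upstream (fold 2.23) and the others none. WT-higher H3K27ac lay at 7.44 percent of all genes. Among 10 coactivator genes, Ncoa2 (H3K27ac 2.53, H3K9ac 3.08) and Creb3l3 (H3K27ac 2.69, H3K9ac 1.47) had KO-higher acetylation. That is 2 of 10 for each mark, against 11.4 percent of all genes for H3K27ac and 4.0 percent for H3K9ac. WT-higher H3K4me3 lay at Ncoa1 (2.23), Ncoa3 (1.49), Crebbp (1.51) and Creb3l3 (1.85), and WT-higher H3K4me1 at Lpin1 (2.29). The shares of all genes were 15.2 and 7.39 percent. With so few genes, these counts set the coactivators and receptors apart from no others. Creb3l3 encodes CREBH, which acts with PPARα in fasting.

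Among 6 genes of PPAR corepressors 4 had KO-higher H3K27ac, against 11.4 percent of all genes. The folds were 6.04 at Ncor1, 6.37 at Tbl1x, 4.15 at Tbl1xr1 and 4.57 at Nrip1. The Ncor1 region lay 20.4 kb upstream, at chr11:62226456-62226657, with 35 tags in KO and 4.96 in WT. Tbl1xr1 also had KO-higher H3K9ac (1.58) and Nrip1 had WT-higher H3K4me3 (1.92). Histone marks do not check the deletion, and Ncor1 RNA was not analysed here.

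Genes most like a member were sought among those with regions in the same set of lists, by the summed difference of the log2 of their highest folds. For Ppara these were AI427809 (0.07) and Gda (0.13) of 433 genes, and for Ppard Fnbp1l (0.08) and Katnal1 (0.18) of 196. Pdk4 shared its set of lists with 16 genes, of which Sprr2a2 (0.50) and Apob (0.57) were nearest. Plin2 was nearest to Nfe2l2 (0.51) and 1700020N01Rik (0.55) of 74.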

How the data were processed

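Chromatin immunoprecipitation libraries of 6 marks in 2 genotypes (12 libraries, 50 cycles, single end) had been mapped by the authors to mm9. Bowtie2 2.2.9, HOMER 3.12, CASAVA 1.8.2 and MACS2 2.1.1 appear in the submitters' processing notes, but MACS 2.0.10.20130419 in the file headers, which also give a tag size of 75 bp, longer than the 50 cycles of the labels (not resolved). Regions had been called at a q cutoff of 0.05 with the other genotype's library as control, per the file headers. Each deposited region carries a pileup (signal), a fold (ratio), and -log10 of its p-value and of its q-value. The authors also deposited, per gene, a log2 fold change of RNA with a p-value and its FDR. Its 12 per-library columns could not be matched to samples and were not used. Of 12 deposited lists 2 (KO H3K4me1 and KO H3K27me3) repeat the WT list, so 10 were used.

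The other genotype's level was recovered from pileup and fold. Where that library was unscaled, 64.6% to 85.1% of the recovered values were whole within 0.01. Summits were joined to GENCODE starts on mm9, with nearest start within 50 kb, promoters within 1 kb and sharing at 1 base. Genes of chromosome 18, where no list had a region, were left out (for example 3 of 60 further PPAR targets). Joins, overlaps and motif search were tested on simulated data, and found 2000 of 2000 joins, 300 of 300 overlaps and 500 of 500 motifs, and 13 of 500 windows without a planted motif matched. Python 3.11.15, pandas 2.3.3 and numpy 2.4.6 were used.

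The members and lists were chosen with earlier results of these data known. Named were the members, every RXR, coactivator or corepressor gene with a region of an active mark, and, of other targets, the 8 with the highest acetylation fold per direction and those with regions in both directions. For members with regions in 2 or more lists, the 2 genes most like them were added. Some genes that this rule names are not reported here. Alternatives changed the q cutoff, the distance limit, the starts used, the position of a region, joining by gene body, the overlap, merging of neighbours and the motif's mismatches and window. No p-value between genotypes was computed. Tag numbers cover counting only and no replicate error.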

Additional observations from a re-analysis of the deposited data

How the results depend on the processing

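With a distance limit of 10 kb in place of 50 kb, KO-higher H3K27ac regions at the 7 genes fell from 47 to 21, H3K9ac regions from 29 to 16, those shared between the marks from 15 to 7, and other targets with KO-higher H3K9ac from 20 to 13. With at most 1 mismatch, DR1 matches went from 6 to 0. The remaining 5 counts at 10 kb stayed within 1.5 times the reported value, as did every gene and region count under a stricter q, a limit of 100 kb, starts of all gene types, placing by midpoint, joining by gene body, merging within 1 kb, the other overlap and the other motif window. Counts for single members moved in 15 of 90 cases. For example, at 10 kb Ppara kept 5 of 22 KO-higher H3K27ac regions and 1 of 9 KO-higher H3K9ac regions. At a -log10 q of at least 5 Ppara kept 5 of 9 H3K9ac regions and Plin2 3 of 8 H3K27ac regions. Pparg gained 1 KO-higher H3K27ac region at 100 kb. No paired analysis was possible because each mark and genotype had 1 library. WT backgrounds went down to 3 tags in H3K9ac and 4.57 in H3K27ac at these genes. The highest H3K9ac folds rest on few WT tags. The highest H3K27ac fold, 6.75 at Ppara, had 115 tags in KO and a WT background of 16.2.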
